A study of Mus musculus with 4 samples.

Results

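The autophagy machinery was read in follicular helper T (TFH) cells with and without Rictor, the subunit that defines mTOR complex 2 (mTORC2). Its genes were taken by name from the array's annotation: the Atg genes that carry a number, the *Gabarap*, *Map1lc3*, *Wipi* and *Ulk* families, and *Becn1*, *Ambra1*, *Uvrag*, *Rb1cc1*, *Pik3c3*, *Pik3r4*, *Vmp1*, *Sqstm1*, *Nbr1*, *Tax1bp1* and *Optn*. Of these, 39 genes had at least 1 probe set named for them alone, out of 18193 such genes on the array, and *Optn* was not analysed here. Together they were read by 91 of 45037 probe sets, and 29 of the 39 genes had more than 1. Each gene was represented by its probe set with the highest mean over all arrays, chosen without regard to group.

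Spleen TFH cells were sorted on day 8 of an infection with LCMV Armstrong, an acute strain of lymphocytic choriomeningitis virus. The Rictor-/- mice, labelled Rictor-null, carry Rictor fl/fl alleles and the Cd4-Cre transgene, which deletes the gene in developing thymocytes and so in both CD4+ and CD8+ T cells and not in other lineages. The WT mice were Rictor fl/fl littermates, so that both groups carry the floxed allele, and mice of both sexes were used at 6 to 10 weeks of age. Each group holds 2 arrays, each made from a pool of mice: at least 5 mice went into each sample by the submitted design text, while the study's legend has 6 Rictor-/- and 4 WT mice, and this difference could not be settled.

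Autophagy encloses cytoplasm in a double membrane and delivers it to lysosomes. The ULK1 kinase complex starts the process, the class III PI3-kinase complex built on Beclin 1 marks the growing membrane with PI3P, and ATG9, ATG2, WIPI proteins and VMP1 supply and shape it. Conjugation enzymes attach ATG12 to ATG5 and lipid to the LC3 and GABARAP proteins, to which cargo receptors such as p62 bind. mTOR complex 1 phosphorylates ULK1 and ATG13 when nutrients are plentiful, mTORC2 phosphorylates AKT, and AKT keeps FoxO factors, which can drive autophagy genes, out of the nucleus. An array reads messenger RNA and gives no measure of autophagic flux.

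The 4 arrays had median intensities of 20.0 to 20.4, and their log2 values correlated at 0.998 within each group and at 0.993 to 0.994 between groups. The cells carried the markers of their label: *Cxcr5*, the follicular homing receptor, read 503 and 505 in Rictor-/- and 847 and 812 in WT, and *Bcl6*, the factor that sets the TFH fate, read 208 and 231 against 467 and 408. Of 10 TFH markers, 7 were lower in Rictor-/- and 0 higher, with a summed intensity of 10423 to 10447 against 13339.6 to 13761 in WT. Of 7 general T cell markers 5 were lower (*Cd5*, *Zap70*, *Cd3e*, *Cd4* and *Lat*, at log2 fold changes of -0.47 to -0.20) and 0 higher, with sums of 17089 to 17131 against 18429.5 to 18778. Some markers of other cells were higher in Rictor-/-. Of 13 myeloid markers 5 were higher and 0 lower (summed intensity 553 to 630.4 against 401 to 426). Of 11 B and plasma cell markers 3 were higher (*Jchain*, *Cd79b* and *Pax5*) and 1 lower, with sums of 1327 to 1390.0 against 1175 to 1252. Most of each sum was *Xbp1*, the lower gene, at 818 and 911 in Rictor-/- and 1016 and 953 in WT. Between the groups the sums went the other way from *Xbp1*, with *Jchain* the steepest riser of the list. Of these 11 markers 8, with *Pax5*, *Ms4a1*, *Cd79a* and *Ebf1* among them, lay under the median of all probe sets. The steepest of these myeloid, B and plasma cell markers were *Fcgr3*, with a ratio of mean intensities of 3.17, *Jchain* (3.06; 378 and 353 against 126 and 113), *Itgam* (2.19) and *Lyz2* (1.90), and the B cell gene *Cd79b* had 1.57. Of 5 NK and CD8 markers, 1 was higher, *Cd8b1*, at 139 and 123 against 90.1 and 82.2. *Cd8a* read 23.7 and 25.2 against 24.7 and 24.0, and 3 of the 5 lay under the median of all probe sets. The summed intensity of the 5 was 170.2 to 186 against 132 to 138. The part of these marker shifts in the values below was not tested, and in sorted bulk samples fewer cells of a type and less RNA per cell cannot be told apart. *Rictor* read 267 and 279 in Rictor-/- and 334 and 303 in WT, and since the exons under its probe sets are not known here, this does not check the deletion.

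Most autophagy machinery genes differed little between Rictor-/- and WT TFH cells, and those that differed did not move together. In Rictor-/- TFH cells 8 of the 39 genes rose (*Vmp1*, *Atg5*, *Atg4a*, *Atg16l2*, *Atg101*, *Tax1bp1*, *Rb1cc1* and *Gabarapl2*) and 3 fell (*Ulk1*, *Ambra1* and *Becn1*), at an adjusted p under 0.05 from limma, while 28 did not pass. By its brightest probe set, no member changed by 1.5-fold or more. Among the other probe sets, the ratio of mean intensities was 1.58 for the second of *Atg12*, 0.665 for the dimmest of *Map1lc3b* and 0.610 for a dim *Atg13* probe set. Among the 11 that passed, the ratio of mean intensities, Rictor-/- over WT, ran from 0.769 for *Ulk1* to 1.28 for *Vmp1*. The log2 fold changes of the 28 that did not pass lay between -0.24 and 0.19, with every 95% interval inside -0.42 to 0.35.

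The share of members that passed was 28.2%, against a background of 19.7% among all 18193 genes, where 12.5% were higher and 7.19% lower. The members are bright genes: 37 of 39 read above the median of all probe sets. Among all genes above that median 31.5% passed, with 20.1% higher and 11.4% lower, and among the 37 members 29.7% passed, so that the members' share is near that of other bright genes. A change of 1.5-fold with an adjusted p under 0.05 was found in 1.63% of all genes. The groups did not overlap in 29 of the 39 members (74.4%), against 55.5% of all genes, dim ones included. Among the 10696 genes above the median, both Rictor-/- values lay above both WT values in 4228 and below them in 2933. Among the 37 members there, this was so in 17 and 12. The members' median log2 fold change was -0.02, beside 0.0068 over all genes and 0.03 over genes above the median intensity, with 18 members above 0 and 21 below.

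**Figure D1:**
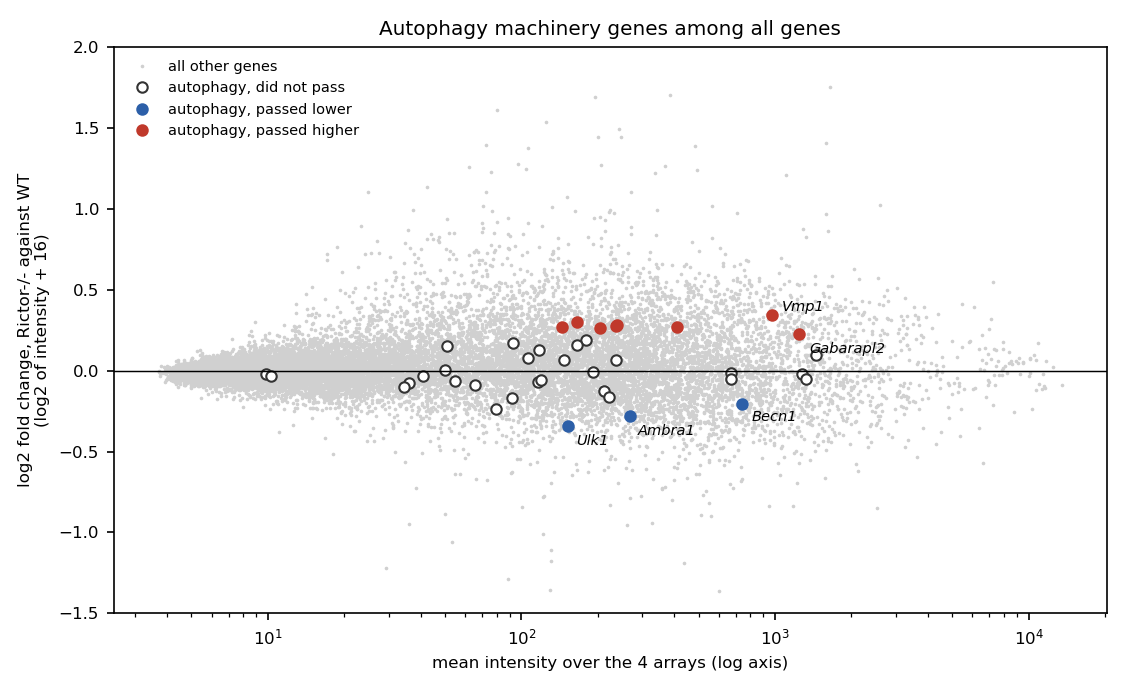
Log2 fold change of Rictor-/- over WT TFH cells (vertical axis) against mean intensity over the 4 arrays (horizontal axis, log scale) for all 18193 genes in grey and the 39 autophagy machinery genes over them, with 2 genes beyond the vertical limit not drawn. The members lie between -0.34 and 0.35, and 37 of them are brighter than the median of all probe sets.

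Which calls held depended on the arrays. With Rictor-/- replicate 1 left out 9 of the 11 calls were kept, with Rictor-/- replicate 2 left out 6, and with either WT replicate left out 2. *Vmp1* was the only member that kept its call in each of these 4 fits. With the average over a gene's probe sets in place of the brightest, 3 calls were kept, those of *Vmp1*, *Atg5* and *Ambra1*.

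**Figure D2:**
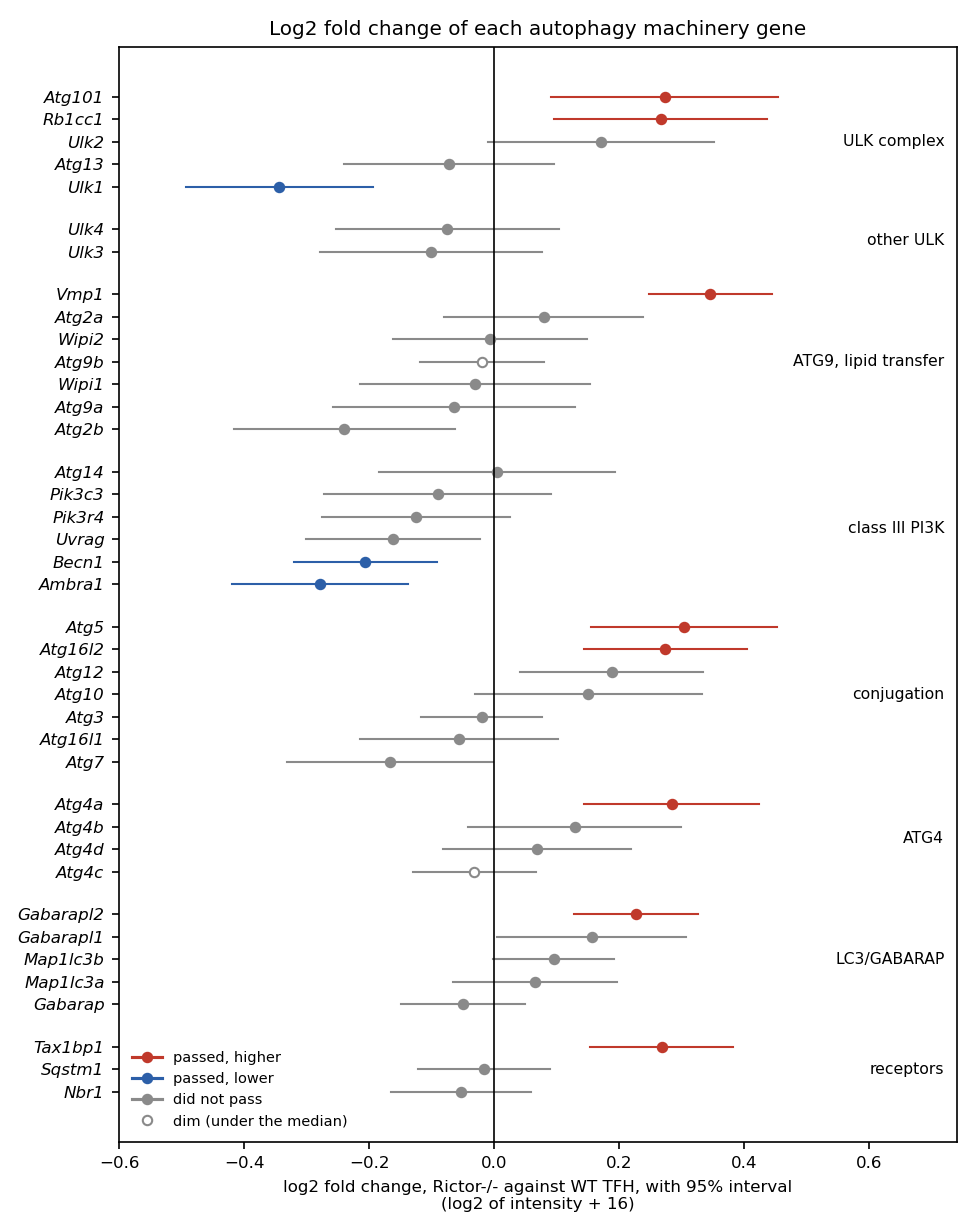
Log2 fold change of Rictor-/- over WT TFH cells with its 95% interval for each of the 39 members, grouped by role. Red marks the 8 members that passed the test higher in Rictor-/-, blue the 3 that passed lower, grey those that did not pass, and open points the 2 members under the median intensity.

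In the complex that starts autophagy, *Ulk1* fell, *Rb1cc1* and *Atg101* rose, and 2 of the 5 genes, *Atg13* and *Ulk2*, did not pass. *Ulk1* (chr5:110784489-110810120, GRCm38.p6) encodes the kinase that mTOR complex 1 and AMPK both phosphorylate. It read 128 and 137 in Rictor-/- and 175 and 171 in WT, so that both Rictor-/- values were below both WT values. Its log2 fold change was -0.34 (standard error (SE) 0.069, adjusted p = 0.00319 from limma), the largest fall among the members by their brightest probe sets. A second, much dimmer *Ulk1* probe set read 25.6 and 28.4 against 27.8 and 28.5, with the ranges overlapping and a log2 fold change of -0.04. *Rb1cc1* (chr1:6214634-6276375), which encodes the scaffold FIP200, read 225 and 223 against 168 and 200.5. *Atg101* (chr15:101284301-101290947), whose product binds and stabilises ATG13, read 156 and 162 against 141 and 117. The groups were apart for both, and both rose by 0.27 on the log2 scale (adjusted p = 0.0299 for *Rb1cc1* and 0.0367 for *Atg101* from limma). In both genes the WT arrays differed more from each other than the Rictor-/- arrays did.

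*Atg13*, the subunit that links the kinase to FIP200, read 113 and 113 against 113 and 127, a log2 fold change of -0.07 (95% interval -0.24 to 0.10). *Ulk2*, the close relative of *Ulk1*, had a log2 fold change of 0.17 (95% interval -0.0097 to 0.35, adjusted p = 0.195 from limma). The more distant kinases *Ulk3* and *Ulk4* had log2 fold changes of -0.10 and -0.08 and did not pass. The *Ulk1* call was lost without WT replicate 1 (adjusted p = 0.0742 from limma) or WT replicate 2 (0.0617), and its adjusted p ranged from 0.00118 to 0.0907 over 14 alternatives. The *Rb1cc1* call was lost without Rictor-/- replicate 1 (0.0959), Rictor-/- replicate 2 (0.0725) or WT replicate 1 (0.282), and a second probe set above the median gave -0.03 (range over 14 alternatives 0.0131 to 0.636). The *Atg101* call was lost without Rictor-/- replicate 1 (0.0785), Rictor-/- replicate 2 (0.130) or WT replicate 2 (0.323, range 0.0158 to 0.323).

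Among the genes that supply and shape the membrane 1 of 7 rose and 0 fell, and that gene, *Vmp1*, rose the most of all members. *Vmp1* (chr11:86583858-86683836) encodes an endoplasmic reticulum protein needed for the membrane to form and close. It read 1082 and 1092 in Rictor-/-, with a mean of 1087 ± 7.03 (SD, n = 2), and 857 and 846 in WT, with a mean of 852 ± 7.61 (SD, n = 2). The log2 fold change was 0.35 (95% interval 0.25 to 0.44, adjusted p = 0.000163 from limma). A second probe set read 215 and 281 against 174 and 175, a log2 fold change of 0.46 (adjusted p = 0.0179 over all probe sets). Here too the Rictor-/- arrays were both above the WT arrays, although they differed more from each other. Over 14 alternatives the adjusted p of *Vmp1* ranged from 3.37e-05 to 0.0661, and it passed in all but the test named in the methods after Benjamini-Hochberg adjustment.

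The span that RefSeq gives *Vmp1* also holds the gene of the microRNA miR-21a, *Mir21a*, at chr11:86584067-86584158 on the minus strand, and transcripts of both genes can share exons at this end. The places of the 2 *Vmp1* probe sets in the gene are not known here, so that readings of the protein's messenger and of the microRNA's precursor could not be separated. The mature sequences are shown because they are what else this locus makes, with the seed (bases 2 to 8) in capitals.
mmu-miR-21a-5p: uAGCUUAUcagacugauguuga
mmu-miR-21a-3p: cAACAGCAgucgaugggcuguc
The array gave no value for either mature microRNA.

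The other genes of membrane supply did not pass. *Atg2b*, one of the genes for the lipid transfer protein ATG2, read 70.0 and 72.7 against 83.6 and 90.8. Both Rictor-/- values were below both WT values, with a log2 fold change of -0.24 (95% interval -0.42 to -0.06, adjusted p = 0.0571 from limma), and the other *Atg2b* probe sets gave -0.19 and -0.14. Its paralogue *Atg2a* had a log2 fold change of 0.08 (95% interval -0.08 to 0.24). *Atg9a*, the scramblase that rides on the seed vesicles, had -0.06, and the PI3P-binding *Wipi1* and *Wipi2* had -0.03 and -0.01. *Atg9b* lay under the median intensity on average, at a log2 fold change of -0.02. *Atg2b* passed with median centring, quantile normalization, a pseudocount of 1, dim probe sets left out, no trend, or the average over its probe sets above the median.

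**Figure D3:**
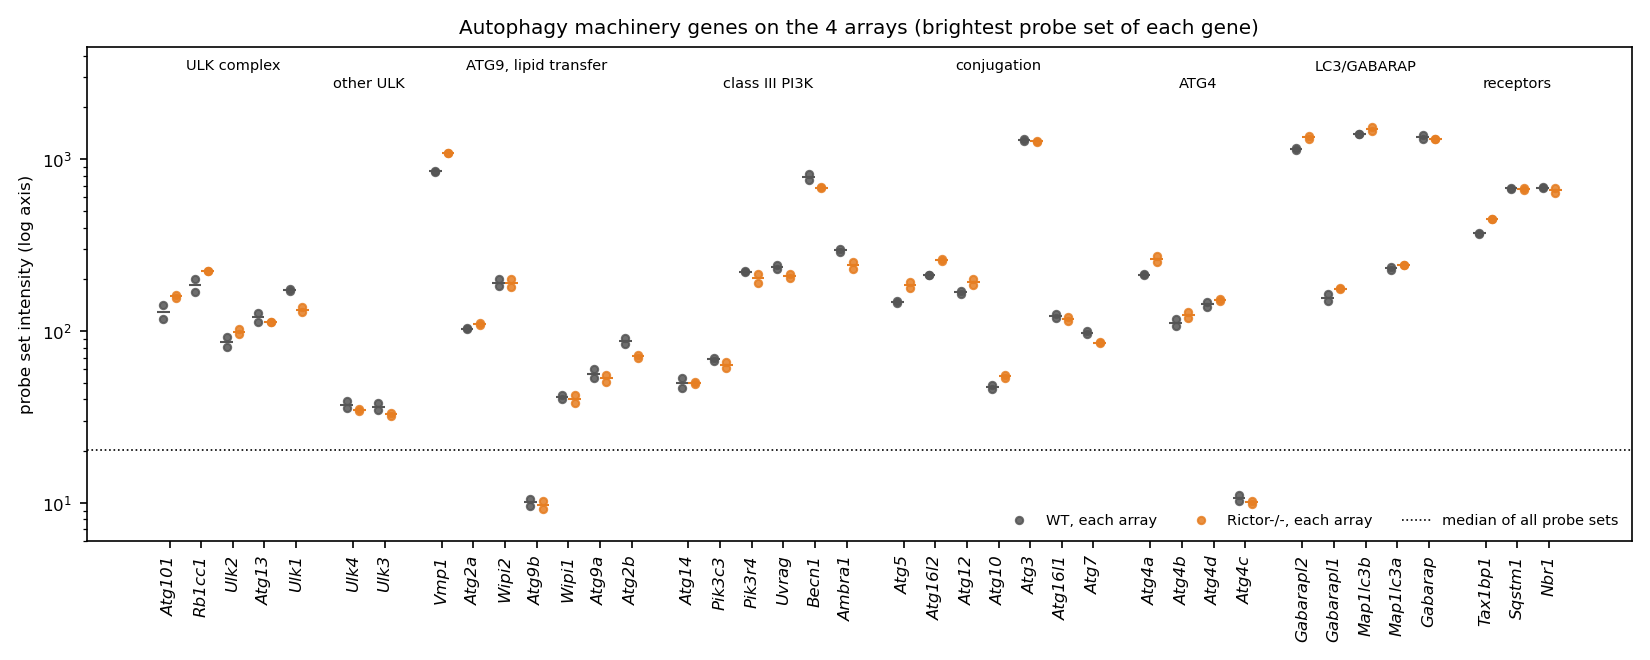
Intensity on each array (vertical axis, log scale) for the 39 members grouped by role, with WT arrays in grey, Rictor-/- arrays in orange and a bar at each group's mean of 2 arrays. The dotted line is the median of all probe sets at 20.2, and 37 members lie above it. Heights of different genes are not comparable, since each probe set binds with its own strength.

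In the class III PI3-kinase complex, which makes PI3P, 2 of 6 genes fell and 0 rose. *Ambra1* (chr2:91730138-91918849), which links Beclin 1 to the ULK1 complex, read 252 and 229 in Rictor-/- and 301 and 289 in WT. Its log2 fold change was -0.28 (SE 0.065, adjusted p = 0.00815 from limma), and its other probe sets also gave negative values, -0.22 and -0.11. *Becn1* (chr11:101288258-101302286), which encodes Beclin 1, read 685 and 682 against 760.3 and 824, a log2 fold change of -0.21 (SE 0.053, adjusted p = 0.0143 from limma). The groups were apart in both genes. For *Becn1* the fall was seen in the brightest probe set alone: the other 4 gave -0.02, -0.06, 0.05 and 0.07, and the second brightest read 462 and 545 against 484 and 538. The probe sets of *Becn1* thus disagreed, and the mean of all 5 had a log2 fold change of -0.04.

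The remaining subunits had values mostly below 0 without passing. *Uvrag*, which replaces ATG14 in the complex on endosomes, read 214 and 202 against 241 and 229 (log2 fold change -0.16, 95% interval -0.30 to -0.02, adjusted p = 0.102 from limma). The regulatory subunit *Pik3r4* had -0.13 and the lipid kinase *Pik3c3* itself -0.09. *Atg14*, which directs the complex to autophagy, had 0.0049 (95% interval -0.18 to 0.19). The median of the 6 genes was -0.14. The *Ambra1* call was lost without Rictor-/- replicate 2 (adjusted p = 0.0580 from limma), WT replicate 1 (0.137) or WT replicate 2 (0.0897), within a range of 0.00361 to 0.137 over 14 alternatives. The *Becn1* call was lost without WT replicate 1 (0.0531) or WT replicate 2 (0.198), and its adjusted p ranged from 0.00665 to 0.723.

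In the conjugation machinery 2 of 7 genes rose and 0 fell. *Atg5* (chr10:44268322-44364299), the protein to which ATG12 is joined, read 178 and 192 in Rictor-/- and 145 and 149 in WT. Its log2 fold change was 0.30 (SE 0.068, adjusted p = 0.0069 from limma). The 2 other *Atg5* probe sets gave larger values: the second read 168 and 169 against 116 and 113 (0.49, adjusted p = 0.0014 over all probe sets), and the dimmest read 70.6 and 88.5 against 63.6 and 49.7 (0.40, adjusted p = 0.0584 over all probe sets). The groups were apart in all 3. *Atg16l2* (chr7:101286325-101302267), a paralogue of the gene for the ATG5 partner ATG16L1, read 261 and 257 against 213 and 210.4, a log2 fold change of 0.27 (SE 0.060, adjusted p = 0.00571 from limma). *Atg16l1* itself had a log2 fold change of -0.06 (95% interval -0.21 to 0.10).

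*Atg12*, the ubiquitin-like protein that is joined to ATG5, depended on the probe set. Its brightest probe set read 199.96 and 186 against 164 and 171 (log2 fold change 0.19, 95% interval 0.04 to 0.33, adjusted p = 0.0729 from limma) and did not pass. The next read 81.1 and 83.5 against 49.2 and 55.3, a log2 fold change of 0.53 (adjusted p = 0.00264 over all probe sets), the largest of any member probe set above the median. *Atg12* passed in the test on the mean of its probe sets above the median (log2 fold change 0.36, adjusted p = 0.00114 from limma, range 0.00114 to 0.338 over its alternatives). Of the other limma alternatives, it passed only with dim probe sets left out and with the average over all its probe sets. The enzymes of both conjugation paths did not pass. The E1-like *Atg7* had -0.17 (adjusted p = 0.162 from limma), with other probe sets at 0.15, -0.01 and 0.11, the E2-like *Atg10* had 0.15, and the E2-like *Atg3* read 1282 and 1257 against 1270.4 and 1305, a log2 fold change of -0.02 (95% interval -0.12 to 0.08).

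The *Atg5* call was lost without Rictor-/- replicate 2 (adjusted p = 0.0533 from limma), WT replicate 1 (0.102) or WT replicate 2 (0.0822), within 0.00103 to 0.107 over 14 alternatives. The *Atg16l2* call was lost without WT replicate 1 (0.0736) or WT replicate 2 (0.0866), within 0.00294 to 0.0866.

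Of the ATG4 proteases, which trim LC3 and GABARAP before lipid is added and free them afterwards, 1 of 4 rose. *Atg4a* (chrX:140953845-141164194) read 251 and 274 in Rictor-/- and 211 and 214 in WT, with the groups apart and a log2 fold change of 0.28 (SE 0.064, adjusted p = 0.00717 from limma). *Atg4b*, the main protease of the family, had 0.13 (95% interval -0.04 to 0.30) and *Atg4d* 0.07. *Atg4c* lay under the median intensity, at -0.03. The *Atg4a* call was lost without Rictor-/- replicate 2 (0.0572), WT replicate 1 (0.109) or WT replicate 2 (0.0969), and the mean with a dim second probe set, itself at -0.22, gave 0.03 (range 0.00327 to 0.818).

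The promoters of these genes were searched for the sites of factors known to drive autophagy genes. RefSeq windows of GRCm38.p6, each of 300 bases around a transcript start and most of it upstream, were found for 33 of the 39 members. The E-box core CACGTG, which reads the same on both strands, lay in the windows of 4 of the 33 genes (12.1%), beside 2187 of all 27025 genes with a window (8.09%). A longer palindrome built on this core was also searched, and lay in 0 of the 33 genes, beside 100 of all 27025 genes (0.37%). So rare a site can be absent from 33 genes without this deciding anything. Of the 4 genes with an E-box 3, *Atg3*, *Atg5* and *Atg7*, belong to the conjugation machinery, which was seen among the hits and was not tested. The stretches around the E-boxes are shown because they hold every such site found, with the E-box in capitals and 12 bases on either side.
Atg5: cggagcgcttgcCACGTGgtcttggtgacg
Atg3: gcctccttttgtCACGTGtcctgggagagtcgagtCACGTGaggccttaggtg
Atg7: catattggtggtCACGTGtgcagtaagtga
Atg14: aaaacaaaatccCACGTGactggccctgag
The *Atg5* stretch lies at chr10:44268313-44268342 on the plus strand, and its E-box begins 14 bases before a transcript start. The *Atg3* stretch at chr16:45158723-45158775 (plus strand) holds 2 E-boxes. The *Atg7* stretch lies at chr6:114670952-114670981 (plus strand), and the *Atg14* stretch at chr14:47568418-47568447 (minus strand). The *Atg7* window surrounds a transcript start inside the gene's span, which begins at chr6:114643127. Of these 4 genes *Atg5* alone passed the test, and the other 3 had log2 fold changes of -0.02, -0.17 and 0.0049. The FoxO motif GTAAACA, searched on both strands, lay in 0 of the 33 genes (4.05% of all genes), which says only that these letters are not in these windows.

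Among the LC3 and GABARAP proteins, which are joined to the membrane lipid, 1 of 5 genes rose. *Gabarapl2* (chr8:111940703-111952915) read 1373 and 1313 in Rictor-/- and 1157 and 1133 in WT, with the groups apart and a log2 fold change of 0.23 (SE 0.046, adjusted p = 0.0034 from limma). *Gabarapl1* read 175 and 177 against 164 and 149, also with the groups apart, but its log2 fold change of 0.16 did not pass (adjusted p = 0.153 from limma). *Gabarap* read 1304 and 1303 against 1387 and 1314, a log2 fold change of -0.05 (95% interval -0.15 to 0.05). The 3 GABARAP genes thus gave a rise that passed, a positive value that did not and a value below 0.

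*Map1lc3b*, the LC3 gene most used as an autophagy marker, read 1463 and 1529 against 1402 and 1398, a log2 fold change of 0.09 (95% interval -0.0019 to 0.19, adjusted p = 0.177 from limma). Its 2 next brightest probe sets gave -0.06 and -0.06 and the dimmest gave -0.41, so that no one direction held over the gene, and none of the 4 passed. *Map1lc3a* read 242 and 244 against 235 and 227, a log2 fold change of 0.07 (95% interval -0.07 to 0.20). The *Gabarapl2* call was lost without WT replicate 1 (adjusted p = 0.0632 from limma) or WT replicate 2 (0.0900), and its second, much dimmer probe set gave 0.10 (range over 14 alternatives 0.00120 to 0.130).

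Of the cargo receptors, which bind both ubiquitin and LC3, 1 of the 3 measured rose. *Tax1bp1* (chr6:52713692-52766780), which also restrains NF-kB signalling, read 449.9 and 448 in Rictor-/- and 371 and 369 in WT. The arrays of each group were nearly equal and the groups were apart, with a log2 fold change of 0.27 (SE 0.053, adjusted p = 0.00295 from limma). Its next probe sets gave 0.26 and 0.26, and the dimmest gave -0.09. *Sqstm1*, which encodes p62, read 660.3 and 676 against 674 and 678, with the ranges overlapping and a log2 fold change of -0.02 (95% interval -0.12 to 0.09). A much dimmer *Sqstm1* probe set read 40.6 and 50.8 against 36.6 and 33.2, a log2 fold change of 0.27 that did not pass (adjusted p = 0.122 over all probe sets). *Nbr1* read 680.0 and 638 against 685 and 683, a log2 fold change of -0.05 (95% interval -0.17 to 0.06). The *Tax1bp1* call was lost without WT replicate 1 (0.0618) or WT replicate 2 (0.0691), within 0.00144 to 0.0691 over 14 alternatives.

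A gene's probe sets often differed in sign, in part at values near 0, but in no member did they pass in opposite directions. Of the 91 member probe sets, 9 passed higher and 4 lower with adjustment over all probe sets, and 20 lay under the median intensity. The share of all probe sets that passed in this fit is not given here, so these counts have no background beside them. Of the 21 members read by 2 or more probe sets above the median, the log2 fold changes had the same sign throughout in 12 and differed in sign in 9. *Atg5*, *Vmp1*, *Ambra1*, *Atg2b*, *Ulk1*, *Gabarapl2* and *Atg16l2* were among the 12, and *Becn1*, *Rb1cc1*, *Tax1bp1*, *Map1lc3b* and *Atg7* among the 9. *Atg13* had a probe set that passed lower, at 12.7 and 13.2 against 25.2 and 17.3 (adjusted p = 0.0388 over all probe sets), but this one is dim, and the brightest *Atg13* probe set did not pass. Probe sets of a gene can bind different transcripts, and their positions were not analysed here.

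**Figure D4:**
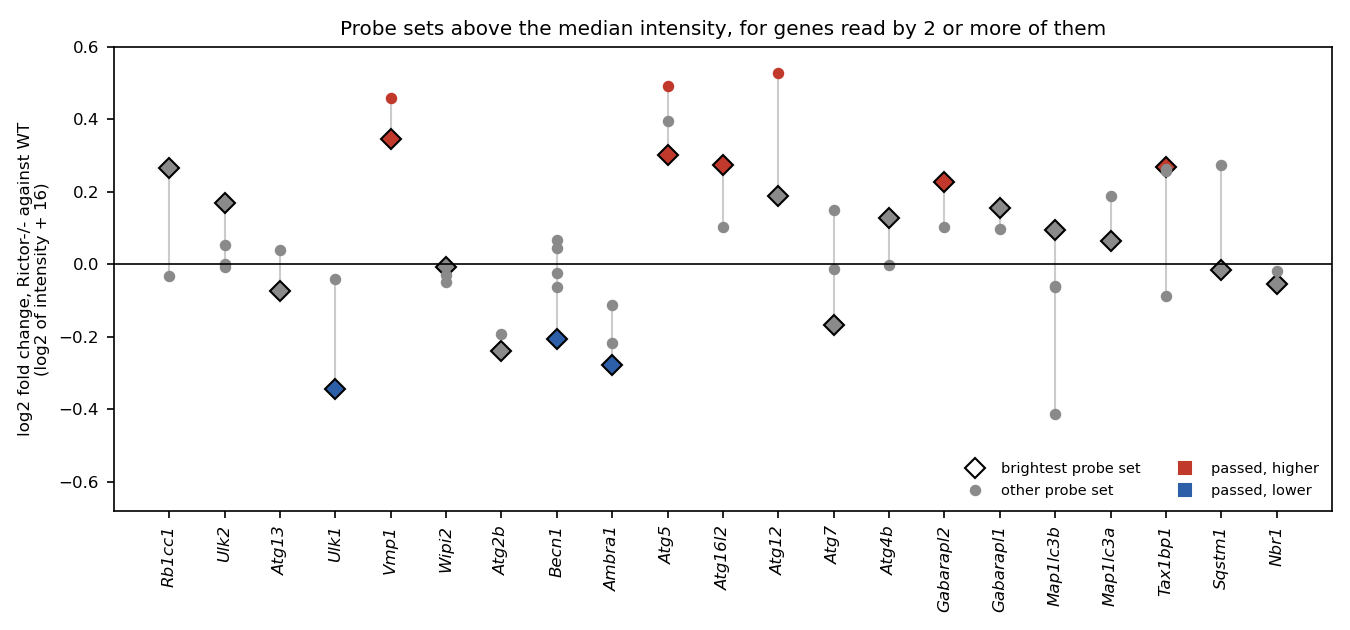
Log2 fold change of Rictor-/- over WT for every probe set above the median intensity of the 21 members read by 2 or more, with a diamond for the brightest probe set of each gene and colour where a probe set passed over all probe sets. All probe sets of Atg5 and Vmp1 lie above 0, while those of Becn1 and Rb1cc1 lie on both sides of 0.

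Genes that work with the machinery also changed in both directions. In 5 further lists 82 genes were measured, of which 12 were higher, 10 lower and 60 did not pass (26.8% passed). Of the 76 above the median intensity 28.9% passed, beside 31.5% of all genes that bright, so that the lists' share is not above that background. The 82 genes had a median log2 fold change of -0.0048. Among 12 genes of autophagosome fusion 2 rose and 0 fell. *Vamp8*, the lysosomal SNARE, read 1408 and 1275 against 984 and 962, a log2 fold change of 0.45 (adjusted p = 6.91e-05 from limma), and *Vps41* of the HOPS tether rose by 0.18 on the log2 scale (adjusted p = 0.0467 from limma). The *Vps41* call was kept in 5 of 14 alternatives: it was lost with median centring (adjusted p = 0.0509 from limma), and without Rictor-/- replicate 1 (0.270), WT replicate 1 (0.194) or WT replicate 2 (0.243), within a range of 0.0267 to 0.270. Its HOPS partners *Vps11*, *Vps16*, *Vps33a*, *Vps39* and *Vps18* had log2 fold changes of 0.22, 0.16, 0.22, 0.14 and -0.16 and did not pass. Without WT replicate 1, 3 of the 82 genes were higher and 3 lower, and without WT replicate 2, 4 were higher and 3 lower. *Vamp8* kept its call with any 1 array left out.

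Of 13 receptors for organelles 3 rose and 1 fell. *Retreg1*, a receptor for endoplasmic reticulum, read 1073 and 1087 against 1401 and 1408, a log2 fold change of -0.37 (adjusted p = 7.02e-05 from limma). *Sec62*, also a receptor for endoplasmic reticulum, rose by 0.30, the mitochondrial receptor *Fundc1* by 0.28 and the ferritin receptor *Ncoa4* by 0.21. Receptors for the same organelle, *Retreg1* and *Sec62*, thus moved in opposite directions by their brightest probe sets. With the average over a gene's probe sets, *Sec62* had 0.19 and did not pass (adjusted p = 0.0546 from limma), while *Retreg1* kept its call. Among 18 accessory genes 2 rose and 3 fell: the lowest p-values were those of *Tecpr1* (-0.23), *Snx18* (-0.29), *Sh3glb1* (-0.17) and *Wdr45b* (0.19). Of 15 genes of the TFEB family and the lysosome 3 rose and 3 fell, with the protease *Ctsb* at -0.29, the membrane protein *Lamp2* at 0.29, the hexosaminidase *Hexa* at -0.29 and the cholesterol carrier *Npc2* at 0.18. With the average over a gene's probe sets, *Ctsb*, *Tecpr1*, *Snx18*, *Sh3glb1* and *Ncoa4* also lost their calls. *Retreg1*, *Sec62* and *Ctsb* kept their calls with any 1 array left out. *Tecpr1*, *Fundc1* and *Lamp2* lost theirs without either WT array, and *Npc2* without WT replicate 1. *Hexa* lost its call without Rictor-/- replicate 1 or either WT array, *Snx18*, *Sh3glb1* and *Ncoa4* without Rictor-/- replicate 2 or either WT array, and *Wdr45b* whichever array was left out. *Tfeb* and *Tfe3*, the factors that drive lysosomal genes, had log2 fold changes of -0.03 and -0.16 and did not pass.

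Among 24 upstream kinases and FoxO factors 2 rose and 3 fell, and 1 of the 3 is *Rictor*, the deleted gene, at -0.21 (adjusted p = 0.0366 from limma). *Foxo1*, whose product mTORC2 restrains through AKT, read 350.0 and 336 in Rictor-/- and 559 and 548 in WT. The groups were far apart, with a log2 fold change of -0.67 (SE 0.053, adjusted p = 5.28e-06 from limma). *Sgk1*, another kinase that mTORC2 phosphorylates, rose by 0.39 (adjusted p = 0.000176 from limma), and *Camkk2*, an activator of AMPK, fell, at -0.23 (adjusted p = 0.0367 from limma). *Foxo1* and *Sgk1* kept their calls with any 1 array left out. The *Camkk2* call was kept in 6 of 14 alternatives: it was lost without the trend (0.0779), and without Rictor-/- replicate 2 (0.267), WT replicate 1 (0.272) or WT replicate 2 (0.186), within a range of 0.00673 to 0.272. The *Rictor* call was also kept in 6 of 14, and was lost without Rictor-/- replicate 1 (0.159), WT replicate 1 (0.297) or WT replicate 2 (0.0824), within a range of 0.0202 to 0.9004. *Foxo3*, also a known driver of autophagy genes, read 184 and 157 against 202 and 197, a log2 fold change of -0.21 that did not pass (adjusted p = 0.0731 from limma). *Mtor* and *Rptor* had -0.11 and -0.17 and did not pass. *Foxo3*, *Mtor*, *Rptor*, *Tfeb*, *Tfe3* and the HOPS genes *Vps33a*, *Vps39* and *Vps18* are named for what they do and were picked after their values were seen.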

How the data were processed

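RNA of sorted TFH cells was hybridised to 4 one-colour Affymetrix mouse arrays, 2 per group. The authors deposited intensities on a linear scale, already scaled between arrays, and the submitters' processing notes list MAS5 and RMA, giving neither a role nor a version. Control probe sets were not used here. Of 45037 probe sets, 34945 have 1 symbol in the platform annotation, 932 several and 9160 none, and only the first kind named a gene. Symbols of 34741 were matched to RefSeq GRCm38.p6, and 0 changed.

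Intensities became log2(intensity + 16), which understates the change of dim genes, and the brightest probe set stood for a gene. Groups were compared over all 18193 genes with limma 3.58.1 (lmFit, eBayes with trend) in R 4.3.3, Benjamini-Hochberg adjustment and a threshold of 0.05. The p-values rest on the spread between 2 pools per group, which limma moderates toward that of genes of similar brightness. They do not measure the spread of a gene's own 2 pools alone. Replicate numbers did not pair the arrays: same-numbered arrays' deviations correlated at -0.03. The number of arrays limits the precision.

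Every member is named, with values on every array for those that passed and for LC3 and GABARAP genes, and up to 4 genes per further list by smallest p. Further members and probe sets were named after their values were seen. Members and lists were chosen with earlier results of these data known. Alternatives were other scalings, pseudocounts, filters and probe set rules, eBayes without the trend, a replicate block, each array left out, and the methods' t-test. That t-test was one-tailed, in the direction each gene showed, while limma was two-sided. The mean of a gene's probe sets above the median intensity was added after seeing the data.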

Additional observations from a re-analysis of the deposited data

How the results depend on the processing

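With 2 arrays per group, calls on single members depended on the arrays more than on the scaling. Leaving out 1 array at a time gave 2 to 6 members higher (8 with all arrays) and 0 to 3 lower (3), 930 to 2000 of all genes higher (2283) and 457 to 1048 lower (1308), and 3 to 8 higher (12) and 3 to 9 lower (10) of the 82 genes of the other lists. Both lowest ends of the members' counts came from fits without a WT array, in which the lone WT array is assumed to vary like the Rictor-/- arrays, and fewer arrays were tested. The median log2 fold change of the members stayed near 0: -0.0062 to 0.0033 with 1 array left out, -0.027 with median centring, -0.023 with quantile normalization, -0.0070 with dim probe sets left out, 0.0049 with the average over a gene's probe sets, and -0.0095 with the mean of those above the median intensity, an alternative chosen after seeing the data. With the mean of all probe sets 3 members were higher and 1 lower, 842 of all genes were lower, and 6 genes of the other lists were lower. With all probe sets tested together 7 genes of the other lists were higher. The methods' t-test is one-tailed, here in the direction each gene showed, so its counts are not like those of the two-sided limma test. Without adjustment it called 2231 of all genes lower, 6 members lower, and 19 higher and 16 lower in the other lists. After Benjamini-Hochberg adjustment it called 3 genes higher and 3 lower of all genes, and 0 members and 0 genes of the other lists in either direction. Limma called 11 members, and 16 members had an unadjusted two-sided p under 0.05. A replicate block kept all 11 member calls, with 8 higher and 3 lower, and the members' median at -0.016. Quantile normalization, median centring, a filter on dim probe sets and a pseudocount of 1 kept all 11 calls, and eBayes without the trend kept 9 (not Atg101 and Rb1cc1). No member's log2 fold change that passed changed sign under any alternative.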
